A study of Mus musculus with 70 samples.

Results

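Primary growth in the kidney and lung metastasis were compared at the fifth in vivo passage of RENCA cells, a mouse renal adenocarcinoma line of the BALB/c strain with an intact Vhl gene. The members were the 5 Passage_5_kidney samples (replicates 1 to 5) and the 4 Passage_5_lung samples (replicates 2, 3, 5 and 6), taken by title and passage, and they were 9 of the 70 samples of the series. All carried GFP, and all had gone through wild type BALB/c mice that were female and 6 weeks old by the methods. KPT (kidney primary tumour) P5 cells came from tumours grown after cells were placed under the capsule of the left kidney, and were passaged each time from kidney to kidney. K-LM (kidney-to-lung metastasis) P5 cells were injected in the same way, but at each passage the cells were taken from lung metastases and put back into a kidney. The 2 groups are therefore separate lineages that share the parental line, and the K-LM P5 samples are not the metastases of the KPT P5 tumours. By the methods, cells recovered from digested tissue were kept in culture until GFP-negative cells were no longer detected, so the arrays read cultured sub-lines and not tissue. Nothing in the labels ties a replicate to a mouse, a tumour or a culture, so p-values measure the spread between these samples, which may be technical.

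Renal carcinoma cells can secrete the same proteins that the liver releases in the acute phase of inflammation, such as the serum amyloids, lipocalin and complement factors. These genes are driven by cytokines through NF-κB and STAT3, and NF-κB also drives the chemokines that call in neutrophils and monocytes. Cholesterol synthesis runs from acetyl-CoA over mevalonate and squalene to cholesterol, and its enzymes are switched on together by the transcription factor SREBP-2 when sterols in the cell are low.

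Levels are log2 signals relative to the 75th percentile of the probes that were well above background on every array of the series, so a level of 0 is that percentile and 1 unit is a doubling. Levels are compared between samples for the same probe and never between genes. Between 27.7% and 33.4% of the probes of a P5 array were well above background. All 9 arrays were on slides of the first set, and 2 slides held both groups (KPT 4 with K-LM 2, and KPT 5 with K-LM 3).

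KPT P5 was not a uniform group. Over the 19376 tested probes with a value on every array, KPT 3, 4 and 5 correlated with each other at r = 0.988 to 0.991 and KPT 1 with KPT 2 at 0.977, while pairs across these sets reached only 0.925 to 0.946. K-LM also paired off, with r = 0.995 for K-LM 2 and 5, 0.993 for K-LM 3 and 6, and 0.981 to 0.983 across. KPT and K-LM samples correlated at 0.940 to 0.962. For 5 RNA samples of other groups that were hybridised again on a later slide, the 2 arrays of the same RNA correlated at 0.987 to 0.992. The first principal component, with 45.5% of the variance, placed KPT 3, 4 and 5 on one side and KPT 1 and 2 with all 4 K-LM samples on the other. The second, with 30.9%, placed KPT 1 and 2 apart from K-LM.

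**Figure D1:**
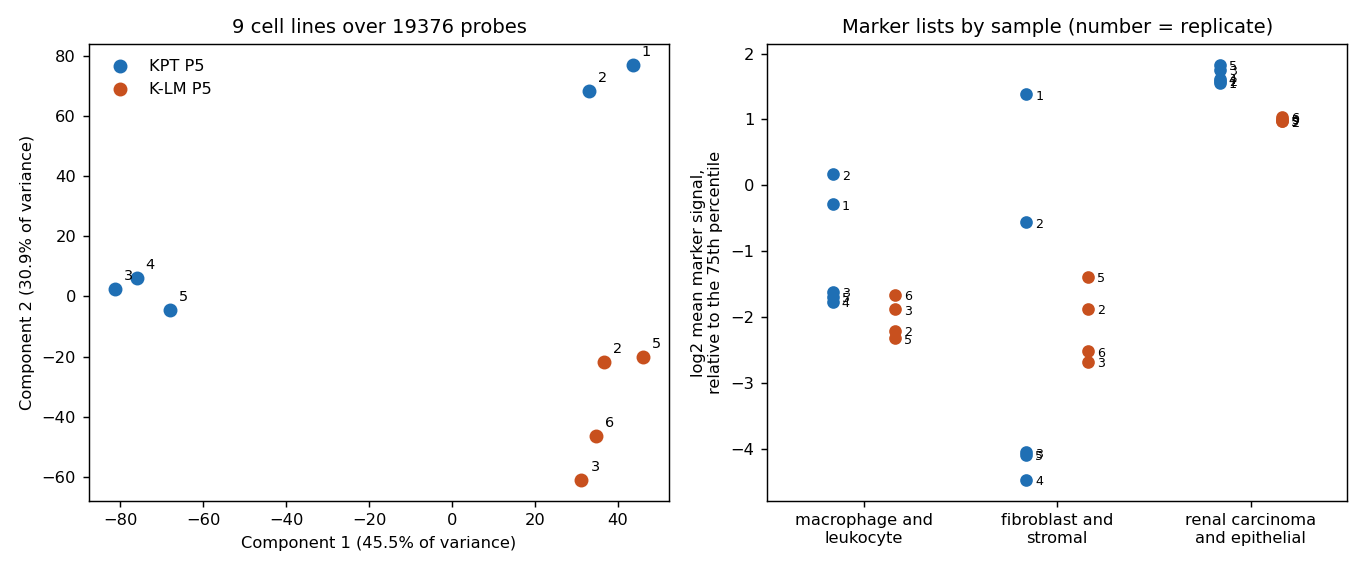
Left, principal components of the 9 P5 cell lines over 19376 probes, with the replicate number beside each point. Right, log2 of the mean marker signal of 3 marker lists in each sample, relative to the 75th percentile. KPT 1 and 2 lie away from KPT 3, 4 and 5 and are highest for the macrophage and fibroblast markers, and the K-LM samples are lowest for the renal carcinoma markers.

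KPT 1 and 2 carried more signal of macrophage and fibroblast markers than the other samples. The summed signal of 16 macrophage and leukocyte markers was -0.29 in KPT 1 and 0.17 in KPT 2, against -1.77 to -1.61 in KPT 3 to 5 and -2.32 to -1.66 in K-LM. In KPT 1 and 2, 13 and 14 of the 16 were above background, against 9 in each of KPT 3 to 5 and 9 to 11 in K-LM. Lyz2, the lysozyme of macrophages, stood at 0.29 and 1.19 in KPT 1 and 2, at -4.72, -4.58 and -5.22 in KPT 3, 4 and 5, and at -3.53, -3.40, -3.35 and -1.93 in K-LM 2, 3, 5 and 6. The 12 fibroblast and stromal markers summed to 1.38 and -0.56 in KPT 1 and 2, to between -4.47 and -4.05 in KPT 3 to 5, and to between -2.68 and -1.39 in K-LM. Col1a1, a chain of type I collagen, stood at 3.03 and 0.95 in KPT 1 and 2, at -3.82, -4.68 and -3.80 in KPT 3, 4 and 5, and at -1.46, -3.11, -1.51 and -2.69 in K-LM 2, 3, 5 and 6. Both genes thus overlapped between the groups and varied more within KPT than between KPT and K-LM. The counts of the gene lists below are therefore also given without KPT 1 and 2 and without KPT 3 to 5, a choice made after the data were seen. In such bulk samples, more cells of a type and more RNA per cell cannot be told apart.

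Markers of the host organs were scarce in both groups. No normal kidney tubule marker was above background in enough samples to be tested, and the lung surfactant genes Sftpa1, Sftpb, Sftpc and Sftpd were above background in none of the 9 samples. The 13 lung epithelial markers summed to between -4.07 and -3.75 in K-LM and to between -3.67 and -3.32 in KPT, so K-LM cells held no more of them than KPT cells. The 7 renal carcinoma and epithelial markers summed to 1.56 to 1.83 in KPT and to 0.97 to 1.04 in K-LM, without overlap. Pax2 and Epcam of this list were above background in no sample.

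KPT and K-LM were nevertheless separable. The share of the squared distances over all samples that fell between the groups was 35.7%, which was the largest share of all 126 assignments of the labels (exact permutation test, 1-sided, p = 0.00794, the smallest it can give). It was 69.3% without KPT 1 and 2 (exact p = 0.0286) and 60.5% without KPT 3 to 5 (exact p = 0.0667, the smallest p that 6 samples allow). These tests took all samples as exchangeable. KPT 3 to 5 and each K-LM pair were as alike as 2 arrays of the same RNA, so these p-values may be too small. With limma at an adjusted p (Benjamini-Hochberg) of at most 0.01, 1149 of 19453 tested probes (5.91%) differed, 515 of them higher (2.65%) and 634 lower (3.26%) in K-LM. Taking the brightest probe of each gene, 324 of 11362 genes (2.85%) were higher and 458 (4.03%) lower in K-LM. Of these 782 genes, 531 differed by 2-fold or more and 139 by 4-fold or more. The groups did not overlap in 23.9% of all genes tested, and the median difference over all genes was -0.09. When the 75th percentile was taken over all probes this median became 0.02 and 65.7% of the probes that passed were higher in K-LM, in place of 44.8%, so the balance of higher against lower depends on the scaling. The share was 58.5% with normexp and quantile normalization, 59.3% with the authors' values and 63.6% with slide as a fixed term.

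The count rested on the number of samples and on their likeness. Without KPT 1 and 2, 3232 probes passed and 753 of the 782 genes were still among them, and without KPT 3 to 5, 496 probes passed and 148 of 747 genes measured there did. When like samples were averaged first (KPT 1 with 2, KPT 3 to 5, K-LM 2 with 5, K-LM 3 with 6), leaving 2 against 2, no probe passed and 2653 had an unadjusted p under 0.05. No gene of the 782 changed its sign in any of these fits. Within the slide of KPT 4 and K-LM 2, 782 of 782 genes had the sign of the whole comparison, and within the slide of KPT 5 and K-LM 3, 781 of 781 measured. The 782 genes were chosen on these same samples, so their signs within slides and in these fits were largely set by that choice and are no independent support.

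A measure of the RNA itself moved with the groups. The mean level of 24 long mRNAs minus that of 83 ribosomal protein mRNAs, taken as a sign of RNA quality, was -7.17 ± 0.46 (SD, n = 5) in KPT and -8.14 ± 0.39 (SD, n = 4) in K-LM (exact permutation test, 2-sided, p = 0.0238). It was -6.92, -7.69, -6.89, -6.70 and -7.64 in KPT 1 to 5 and -7.99, -8.71, -7.94 and -7.90 in K-LM 2, 3, 5 and 6, so the groups did not overlap. The permutation test of this index also took like samples as exchangeable. All 21 long mRNAs tested were lower in K-LM (median -0.88, range -1.63 to -0.05), although Huwe1 alone passed, and of the 81 ribosomal protein mRNAs tested none passed (median 0.16). With this index as a covariate, 2 probes passed and 2373 had an unadjusted p under 0.05. The part of RNA quality in single differences was not tested beyond that fit.

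Acute phase genes were higher in K-LM P5 as a list. Saa3, an inducible serum amyloid, stood at -2.50, -2.57, -5.41, -5.27 and -5.69 in KPT 1 to 5 and at 3.14, 2.03, 3.86 and 2.19 in K-LM 2, 3, 5 and 6. The difference of 7.09 ± 0.77 (SE) on the log2 scale was the largest of the genes taken by the naming rule (136-fold, limma adjusted p = 0.000788), and KPT 1 and 2 lay between the other KPT samples and K-LM. Saa1, the hepatic form, stood at -3.97, -4.07, -5.45, -5.20 and -5.65 in KPT and at 1.02, -0.29, 1.75 and -0.16 in K-LM, a difference of 5.45 ± 0.51 (43.6-fold, adjusted p = 0.000384). Its close relative Saa2 was above background in no KPT sample and in 2 K-LM samples (K-LM 2 at -4.69 and K-LM 5 at -4.96), so the ratio was at least 1.4-fold (adjusted p = 0.00954). Saa2 no longer passed when K-LM 6 or any 1 KPT sample was left out. Without K-LM 2 or K-LM 5 it was above background in too few samples to be tested. Of 18 acute phase genes tested, 11 were higher in K-LM and none lower (61.1%, against 6.88% of all genes), with a median difference of 2.23. The others that passed were Lcn2, which binds bacterial siderophores (3.71), the orosomucoids Orm1 (2.74) and Orm2 (2.80), the last with 1 K-LM sample missing, the copper carrier Cp (1.47) and the protease inhibitors Serpina3i (4.49) and Serpina3f (4.38). Serpina3n and the metalloreductase Steap4 passed as well and were above background in no KPT sample, so their ratios were at least 2.21-fold and at least 1.04-fold. Steap4 was above background in only 2 of the 4 K-LM samples. Lcn2 was as even within K-LM as any of the acute phase genes that passed, at 3.53, 3.55, 3.52 and 3.32, against 0.45, 0.94, -0.95, -0.85 and -0.71 in KPT. Hp and the metallothioneins Mt1 and Mt2 did not pass, at -0.11, 0.36 and 0.40. The count was 11 of 17 without KPT 1 and 2, 9 of 18 without KPT 3 to 5 and 6 to 10 with 1 sample left out, lowest without KPT 4, K-LM 2 or K-LM 6, and it was 0 with the index as a covariate, where the median was 2.40.

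Complement followed in part. Cfb, a component of the alternative convertase, was above background in no KPT sample, with measured levels of -5.77, -6.63, -8.72, -8.70 and -7.75, and stood at -2.27, -2.38, -2.30 and -2.83 in K-LM. Its ratio was at least 13.9-fold (measured difference 5.07 ± 0.58, adjusted p = 0.000949). C3, the central component, stood at -2.40, -3.42, -4.01, -3.75 and -3.90 in KPT and at -0.72, -1.03, -0.33 and -0.42 in K-LM (difference 2.87, adjusted p = 0.000863). The mean of C3 was 0.94 in parental cells and -0.54, -3.50 and -1.53 in KPT P4, P5 and P6 (P6 on the later slide). In K-LM P4, P5 and P6 it was 1.25, -0.62 and 1.56, so K-LM P5 also lay below parental cells. The classical proteases C1s1 and C1ra were higher by 2.05 and 1.55, and no other of the 18 complement genes tested passed (4 higher, none lower, 22.2% against 6.88% of all genes, median 0.18). Mean levels of C1s1 and C1ra were -1.08 and -2.09 in parental cells, -3.10 and -3.58 in KPT P5, and -1.04 and -2.02 in K-LM P5. Cfb was above background in no parental sample. The C1q chains C1qa, C1qb and C1qc, which macrophages make, were above background in 2 KPT samples and no K-LM sample and did not pass. The complement count was 6 higher and none lower of 14 without KPT 1 and 2 (median 0.98), and 3 higher and 5 lower without KPT 3 to 5.

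**Figure D2:**
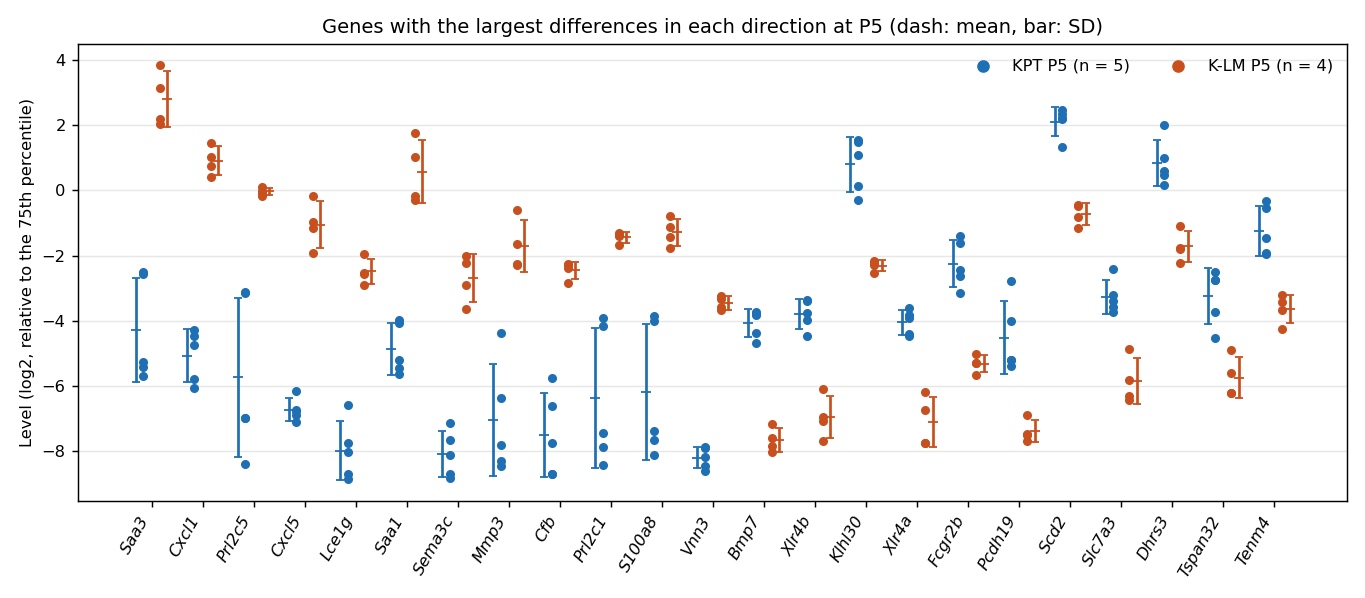
Levels of genes with the largest differences in each direction (12 higher and 11 lower in K-LM) in the 5 KPT P5 and 4 K-LM P5 samples, on the log2 scale relative to the 75th percentile. Points are samples, and the dash and bar beside them are the mean and SD. No gene shown overlaps between the groups, and Saa3, Prl2c5, Prl2c1 and S100a8 are spread widely within KPT.

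Chemokines for neutrophils were low in KPT P5 and high in K-LM P5. Cxcl1, which acts on neutrophils through Cxcr2, stood at -4.46, -4.27, -5.80, -6.08 and -4.74 in KPT 1 to 5 and at 0.74, 0.41, 1.46 and 1.03 in K-LM 2, 3, 5 and 6. The difference was 5.98 ± 0.40 (63.1-fold, adjusted p = 0.000124). Cxcl5, another Cxcr2 ligand, stood at -0.96, -1.93, -0.17 and -1.16 in K-LM, and its ratio was at least 38-fold because it was above background in no KPT sample (adjusted p = 7.43e-05). Cxcl3 was higher by 4.24 ± 0.28 and Cxcl2 by 4.23 ± 0.50, and neither overlapped between the groups. The monocyte chemokine Ccl2 stood at 0.55, 1.93, -1.03, -1.47 and -0.93 in KPT and at 3.60, 2.91, 3.98 and 3.35 in K-LM (difference 3.65, adjusted p = 0.00574), with KPT 2 closest to K-LM. Cxcl10, a T cell chemokine, was higher by 1.74 (adjusted p = 0.00927). Neither Ccl2 nor Cxcl10 passed when KPT 3, KPT 5 or any 1 K-LM sample was left out, and Ccl2 was also lost without KPT 4 and Cxcl10 without KPT 1. In all, 6 of 19 chemokines tested were higher and none lower (31.6%, against 6.88% of all genes, median 1.58). Ccl7 did not pass (3.88, adjusted p = 0.0233), at -0.99 and 0.45 in KPT 1 and 2 but -4.00, -4.36 and -4.08 in KPT 3, 4 and 5. Without KPT 1 and 2 the count was 14 higher and 1 lower, and without KPT 3 to 5 it was 4 higher and 1 lower with a median of 0.18. With 1 sample left out it was 4 to 8, so this list depended on which KPT samples stood for the group.

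The promoters of the chemokines that passed are shown because 4 of the 6 had an entry in the RefSeq promoter table (GRCm38.p6, 250 bases before to 50 bases after the gene start) and each of the 4 held the NF-κB consensus (the kappaB site), searched on both strands. The motif was chosen after the values were seen, and a looser spelling of it was tried as well. Capitals mark every match, and where matches overlap, on the same or the opposite strand, the capitals run together. The windows are Cxcl1 at chr5:90890995-90891294, Cxcl2 at chr5:90903649-90903948 and Cxcl3 at chr5:90785851-90786150, all on the plus strand, and Cxcl10 at chr5:92348840-92349139 on the minus strand.
Cxcl1: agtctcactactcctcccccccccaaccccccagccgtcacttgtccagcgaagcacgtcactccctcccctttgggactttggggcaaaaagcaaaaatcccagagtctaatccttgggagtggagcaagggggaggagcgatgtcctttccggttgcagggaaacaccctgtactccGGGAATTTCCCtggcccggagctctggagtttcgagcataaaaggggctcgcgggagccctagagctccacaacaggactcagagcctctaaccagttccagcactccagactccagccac
Cxcl2: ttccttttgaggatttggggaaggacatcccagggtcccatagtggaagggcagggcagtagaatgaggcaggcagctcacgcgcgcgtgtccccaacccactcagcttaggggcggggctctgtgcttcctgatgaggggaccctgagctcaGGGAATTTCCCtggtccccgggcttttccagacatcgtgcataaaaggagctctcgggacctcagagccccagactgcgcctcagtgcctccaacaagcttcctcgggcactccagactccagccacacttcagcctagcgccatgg
Cxcl3: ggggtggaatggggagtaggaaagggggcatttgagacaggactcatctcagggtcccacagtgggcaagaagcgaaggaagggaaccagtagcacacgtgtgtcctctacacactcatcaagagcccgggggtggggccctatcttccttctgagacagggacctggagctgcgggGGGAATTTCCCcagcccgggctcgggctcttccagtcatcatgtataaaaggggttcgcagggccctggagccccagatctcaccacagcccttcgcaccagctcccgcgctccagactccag
Cxcl10: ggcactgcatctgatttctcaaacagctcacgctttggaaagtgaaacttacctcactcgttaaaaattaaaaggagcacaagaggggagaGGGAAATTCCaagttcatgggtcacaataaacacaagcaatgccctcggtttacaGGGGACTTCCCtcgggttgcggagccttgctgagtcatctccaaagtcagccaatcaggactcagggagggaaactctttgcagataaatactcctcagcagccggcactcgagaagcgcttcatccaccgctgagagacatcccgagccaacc
Cxcl1, Cxcl2 and Cxcl3 share a capital run made of 2 overlapping matches, 1 on each strand. The plus-strand match begins 71, 97 and 73 bases before the gene start, and the minus-strand match 70, 96 and 72 bases before it. The 2 capital runs of Cxcl10 begin 159 and 104 bases before the gene start. Of the 13 tested chemokines with a promoter entry 5 held the sequence, and of 27025 genes with an entry 9.55% did. Among acute phase genes that passed, 2 of 10 with an entry held it (Serpina3i and Steap4). A match is a string of letters and not a measured site.

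A further 3 genes were named because their values had been seen, and they stand for no list. Nfkbia, the inhibitor that NF-κB itself induces, stood at -0.80, -0.43, -1.11, -1.05 and -0.89 in KPT and at 1.66, 2.00, 1.84 and 1.96 in K-LM (difference 2.72 ± 0.16, adjusted p = 7.43e-05). Nos2, the inducible nitric oxide synthase, was higher by 3.42 ± 0.25, and the ribonuclease gene Zc3h12a, above background in no KPT sample, by at least 2.17-fold. Nfkbia was even within each group, and KPT 1 and 2 did not stand apart for it.

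Among 33 cytokines and growth factors tested, 2 were higher and 3 lower in K-LM (15.2%, against 6.88% of all genes, median 0.08). The count was 9 higher and 5 lower of 30 without KPT 1 and 2, and 1 higher and 2 lower without KPT 3 to 5. Tnf, an inflammatory cytokine, stood at -4.62, -3.99, -4.71, -4.99 and -4.53 in KPT and at -2.52, -2.50, -2.62 and -2.50 in K-LM (difference 2.03 ± 0.19, adjusted p = 0.000366). Csf2, a growth factor for myeloid cells, was higher by 2.17 ± 0.27. Bmp7, a kidney growth factor of the TGF-β family, had the largest difference of the genes lower in K-LM. It stood at -4.38, -4.68, -3.82, -3.73 and -3.78 in KPT and was above background in no K-LM sample, so that it was at least 4.72-fold lower (measured difference -3.59 ± 0.25, adjusted p = 0.000151). The metabolic hormone Fgf21 was lower by a difference of -1.52 and Pdgfc by -0.63. Il6, which induces the acute phase, did not pass (5.34 ± 1.6, adjusted p = 0.049): it stood at -0.76 and -1.66 in KPT 1 and 2, at -7.93, -8.37 and -7.21 in KPT 3, 4 and 5, and at 0.64, -1.24, 1.46 and -0.25 in K-LM. KPT 1 thus lay above K-LM 3, and the 2 sets of KPT differed more from each other than KPT 1 and 2 did from K-LM. Of the 20 genes of the IL-6 family and STAT3 feedback, Socs1 alone passed (0.73). The share was 5%, against 6.88% of all genes, and the median was -0.06. Socs1 no longer passed when KPT 2 to 5 or any K-LM sample was left out one at a time, whereas 8 of the 20 were higher without KPT 1 and 2 and none passed without KPT 3 to 5.

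Cholesterol genes were lower in K-LM P5 as a list. Of 28 tested, 13 were lower and none higher (46.4%, against 4.03% of all genes), with a median difference of -1.04. Fdps, which makes farnesyl diphosphate, stood at 2.19, 1.76, 2.54, 2.33 and 2.84 in KPT 1 to 5 and at 0.67, 0.80, 0.50 and 0.77 in K-LM 2, 3, 5 and 6 (difference -1.65 ± 0.21, adjusted p = 0.00142). The groups did not overlap, and K-LM was the tighter one. In the order of the pathway, the enzymes that passed were Hmgcs1 (-1.50), Mvd (-1.03), Idi1 (-1.26), Fdps, Fdft1 (-1.21), Sqle (-0.88), Lss (-1.26), Cyp51 (-1.71), Msmo1 (-1.44) and Dhcr7, which was above background in no K-LM sample (at least 2.64-fold lower). Insig1, which holds the SREBP complex back, was at least 3.4-fold lower, as it was above background in no K-LM sample, and the sterol carrier Stard4 (-1.05) was lower as well, whereas the efflux gene Abca1 (adjusted p = 0.05) and the gene of SREBP-2 itself, Srebf2 (0.89, adjusted p = 0.243), did not pass. Scd2, which desaturates fatty acids, was lower by a difference of -2.83 ± 0.25, at 2.18, 1.33, 2.46, 2.22 and 2.35 in KPT and -0.47, -1.15, -0.44 and -0.83 in K-LM. Without KPT 1 and 2, 16 of 27 were lower and 2 higher, without KPT 3 to 5, 5 were lower, with 1 sample left out, 8 (without K-LM 6) to 14 were lower, and with the index as a covariate none passed and the median was -1.03.

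The promoter of Hmgcs1 is shown as the example among these genes that held TCACNCCAC, a sterol response element sequence searched on both strands after the values were seen. It lies at chr13:119690101-119690400 (GRCm38.p6, plus strand), and capitals mark the match, whose first base is 137 bases before the gene start.
Hmgcs1: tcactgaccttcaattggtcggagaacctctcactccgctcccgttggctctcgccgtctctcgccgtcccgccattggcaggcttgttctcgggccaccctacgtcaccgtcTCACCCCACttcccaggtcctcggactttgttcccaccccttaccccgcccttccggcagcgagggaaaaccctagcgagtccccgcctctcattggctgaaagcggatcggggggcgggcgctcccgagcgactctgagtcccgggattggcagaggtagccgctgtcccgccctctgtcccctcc
Of 8 cholesterol genes that passed and had an entry, Hmgcs1 alone held these letters, and 1.44% of all genes with an entry did.

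**Figure D3:**
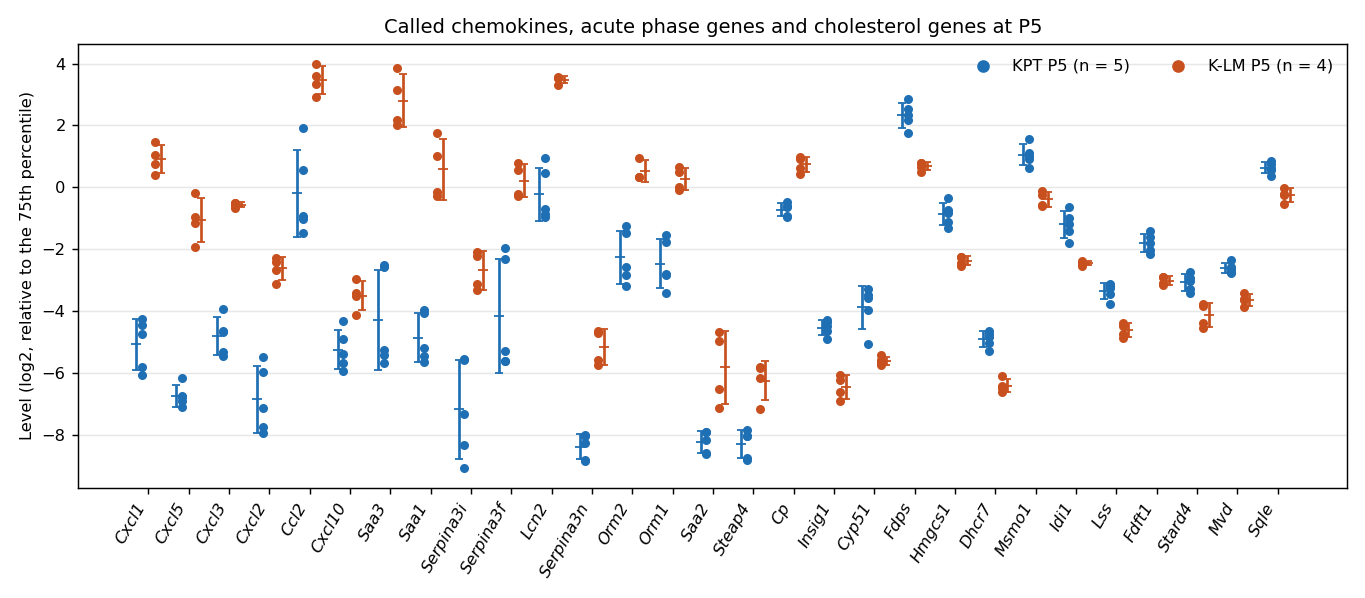
Levels of chemokines, acute phase genes and cholesterol genes that passed at P5, in the 5 KPT and 4 K-LM samples, on the log2 scale relative to the 75th percentile, with the mean and SD beside the points. All chemokines and acute phase genes shown are higher in K-LM, and all cholesterol genes shown are lower.

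Late genes of the cornified layer were also among the higher genes and were collected because their values had been seen. Other genes of stratified epithelium were not detected: Krt5, Krt14, Krt15, Dsp, Jup, Pkp1, Ppl and Ovol1, all of the keratin and adhesion list, were above background in no P5 sample. Lce1g, a late cornified envelope gene, was above background in no KPT sample and stood at -2.53, -2.89, -1.95 and -2.56 in K-LM (at least 14.2-fold, adjusted p = 0.000237). Of 7 tested Lce genes 5 were higher and none lower, with differences from 0.30 to 5.50, and of 5 tested Sprr genes 3 were higher, among them Sprr1b (at least 3.16-fold). Over all genes tested, 2.85% were higher. Crct1, another gene of the cornified envelope, was higher by 4.31 ± 0.40, and the epidermal cytokine Il1f6 by at least 3.82-fold. These families lie in clusters of near-identical copies, as do the Saa, Serpina3, Prl2c, Xlr4 and H2 genes, so a probe can read a relative. S100a8, a calgranulin, was higher by 4.92 ± 0.92, but KPT 1 and 2 (-4.01 and -3.86) lay midway between KPT 3, 4 and 5 (-7.65, -8.11 and -7.38) and K-LM (-1.76 to -0.79), and it no longer passed when KPT 3, 4 or 5 or any 1 K-LM sample was left out. The pantetheinase gene Vnn3 was even in both groups and was at least 7.22-fold higher (measured difference 4.75 ± 0.19, adjusted p = 7.27e-06).

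Few matrix genes passed over all 9 samples, and their counts depended on which KPT samples were used. Sema3c, a secreted semaphorin, was above background in no KPT sample and stood at -2.22, -2.89, -2.01 and -3.63 in K-LM (at least 12.3-fold, adjusted p = 0.000239). Mmp3, stromelysin-1, stood at -4.37, -6.36, -8.31, -8.45 and -7.81 in KPT and at -1.65, -2.26, -0.60 and -2.29 in K-LM (difference 5.36 ± 0.80, adjusted p = 0.00317), with KPT 1 the nearest to K-LM, and it no longer passed when any 1 K-LM sample or KPT 3 to 5 together were left out. Mmp10 (1.12) and the plasminogen activator Plat (1.24) were the other proteases that passed, of 32 tested. The share was 9.38%, against 6.88% of all genes, and the median of the list was 0.21. Lamb3, a chain of laminin-332, was higher by 3.93 ± 0.42 and the proteoglycan Dcn by 2.30 ± 0.31. Of 20 basement membrane genes, 32 interstitial collagen genes and 28 proteoglycan genes tested, 1 in each list was higher, and Ccn4 was the 1 proteoglycan-list gene that was lower. The shares that passed were 5%, 3.12% and 7.14%, near or below the 6.88% of all genes. Without KPT 1 and 2 the genes higher were 12 of 28 proteases, 6 of 18 basement membrane genes, 13 of 30 collagen genes and 12 of 23 proteoglycan genes, with medians of 0.55, 0.47, 0.65 and 1.80. Without KPT 3 to 5 they were 2, 1, 0 and 0, with medians of -0.23, -0.71, -0.38 and -1.22. The fibroblast markers were highest in KPT 1 and 2 and lowest in KPT 3 to 5, and their part in these counts was not tested. Of the proteases 1 passed when any 1 K-LM sample was left out, and of the collagen genes none passed when KPT 3, KPT 4 or any 1 K-LM sample was left out. The placental lactogen relatives Prl2c5 and Prl2c1 were higher by 5.70 ± 1.1 and 4.93 ± 0.94, but Prl2c5 stood at -3.13 and -3.14 in KPT 1 and 2 against -8.41, -6.98 and -7.00 in KPT 3, 4 and 5, and its second probe missed the threshold (adjusted p = 0.0107).

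Interferon-stimulated genes and MHC class I genes differed less. Of 34 interferon-stimulated genes tested 4 were higher and none lower (11.8%, against 6.88% of all genes, median 0.85). They were Bst2, a membrane tether of viruses (1.69 ± 0.22), the RNA sensor Dhx58 (1.98 ± 0.25), Gbp3 (1.86) and Oasl1 (0.75), and the largest that missed the threshold was Irf7 (2.50, adjusted p = 0.0105). With the percentile over all probes 10 passed, without KPT 1 and 2, 10 were higher and 1 lower, without KPT 3 to 5, 1 was higher, and with 1 sample left out 2 (without KPT 3 or K-LM 2, 5 or 6) to 6 were higher. Of 18 MHC class I genes 3 were higher (16.7%, against 6.88% of all genes, median 0.49), namely H2-D1 (0.88), H2-T23 (0.93) and the peptide loading disulfide isomerase Pdia3 (0.99). None of the 18 passed when KPT 3, KPT 4, KPT 5 or any K-LM sample was left out, without a filter on dim probes, with slide as a fixed term or without KPT 3 to 5, and 5 were higher without KPT 1 and 2. Of 43 hypoxia targets 6 were higher and none lower (14%, against 6.88% of all genes, median 0.20). The count was 13 higher and 1 lower without KPT 1 and 2, 1 higher and 1 lower without KPT 3 to 5, 3 higher without KPT 3 or KPT 4, 4 without KPT 5 and 2 when any 1 K-LM sample was left out. Bnip3, a mitophagy receptor, stood at 2.38, 2.80, 2.12, 2.15 and 1.99 in KPT and at 3.84, 3.58, 3.55 and 3.50 in K-LM (difference 1.33 ± 0.18, adjusted p = 0.00193). The others were Ankrd37 (1.94), Ero1a (1.68), the glucose transporter Slc2a3 (1.17) and the glycolysis genes Pdk1 (0.86) and Hk1 (0.85), while Gapdh, Ldha and Pgk1 were at 0.03, 0.11 and 0.19.

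**Figure D4:**
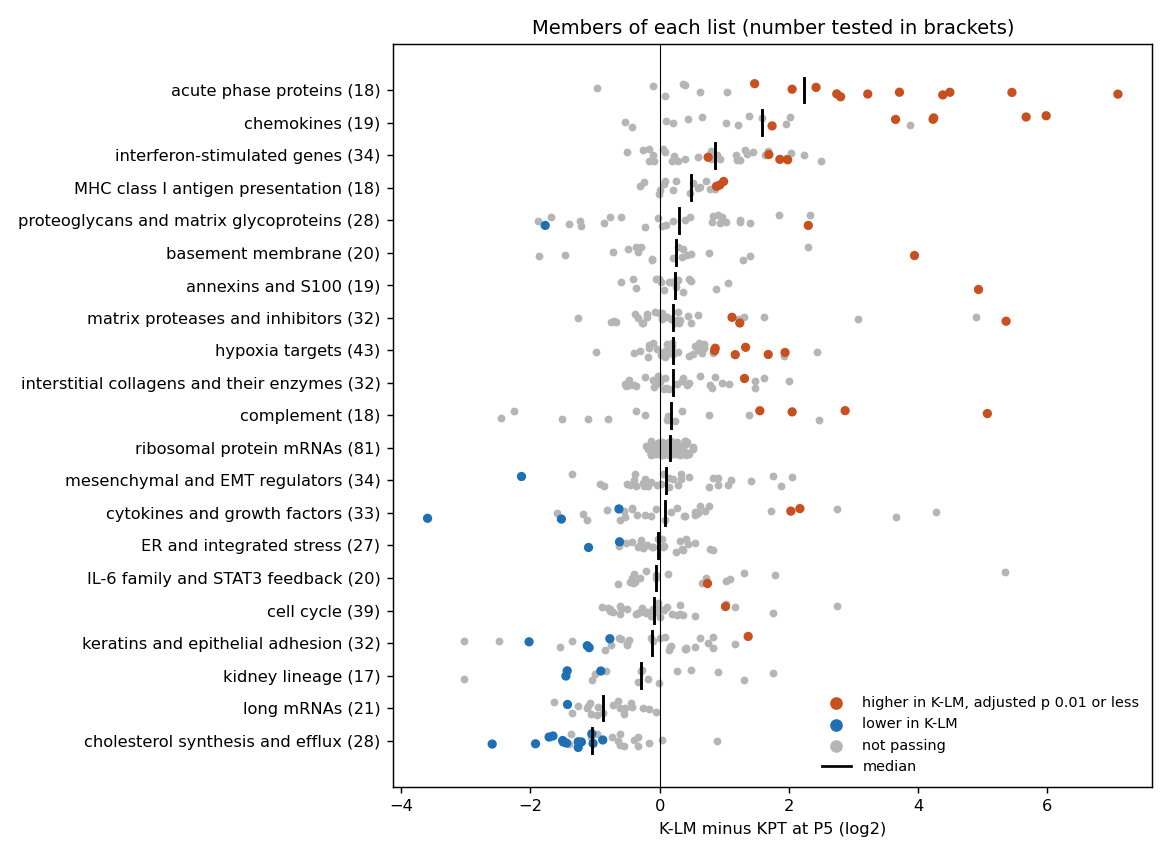
Differences between K-LM and KPT at P5 on the log2 scale for the tested members of each gene list, with the number tested in brackets. Each point is a gene, coloured where its adjusted p was 0.01 or less, and the black bar is the median of the list. The acute phase list has the highest median, 2.23, and the cholesterol list the lowest, -1.04.

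Kidney and epithelial identity genes were lower in K-LM where they differed, with 1 exception. Of 17 kidney lineage genes tested 3 were lower and none higher (17.6%, against 6.88% of all genes, median -0.29). Pax8, a transcription factor of the nephron, stood at -2.46, -2.73, -2.25, -2.24 and -2.63 in KPT and at -3.39, -3.38, -3.42 and -3.27 in K-LM (difference -0.91 ± 0.14, adjusted p = 0.00341). Tfcp2l1, a factor of the collecting duct, was lower by a difference of -1.45, and the sodium channel subunit Scnn1a, above background in no K-LM sample, was at least 2.13-fold lower. Cdh16, kidney cadherin, did not pass (adjusted p = 0.0133). It ranged from -6.22 to -2.26 in KPT and was above background in no K-LM sample. Of 32 keratins and adhesion genes 1 was higher and 4 lower (15.6%, against 6.88% of all genes). Krt19 was higher (1.37 ± 0.21), and Krt18 (-0.77), Cdh3 (-2.02), Itgb4 (-1.12) and the splicing factor Esrp1 (-1.09) were lower. Without KPT 1 and 2 the kidney list had 3 higher and 6 lower and the keratin list 3 higher and 6 lower, and without KPT 3 to 5 they had 1 and 6 lower and none higher. Krt19 no longer passed without KPT 3, KPT 4 or K-LM 3, 5 or 6, and none of the keratin list passed without K-LM 3 or K-LM 5. Of 34 mesenchymal and EMT genes Pdgfrb alone passed (2.94%, against 6.88% of all genes), and it was lower in K-LM (-2.15 ± 0.37). It no longer passed when KPT 3, KPT 4 or any 1 K-LM sample was left out. The list had 15 of 33 genes higher and 2 lower without KPT 1 and 2 (median 0.85), and without KPT 3 to 5 none was higher and 2 were lower (median -1.08).

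The remaining lower genes of the naming rule had no shared list. Klhl30 stood at 0.13, -0.29, 1.56, 1.1 and 1.49 in KPT and at -2.30, -2.53, -2.24 and -2.16 in K-LM (difference -3.11 ± 0.38, adjusted p = 0.00123). Fcgr2b, the inhibitory Fc receptor, stood at -1.61, -1.41, -2.45, -3.14 and -2.64 in KPT and at -5.30, -5.29, -5.66 and -5.03 in K-LM (difference -3.07 ± 0.34), so it was high in KPT 3 to 5, where the macrophage markers were low, as well as in KPT 1 and 2. The X-linked lymphocyte gene Xlr4b (-3.16) and its relative Xlr4a (at least 4.73-fold lower), the protocadherin Pcdh19 (at least 3.48-fold lower), the cationic amino acid transporter Slc7a3 (-2.60), the retinal reductase Dhrs3 (-2.57), the tetraspanin Tspan32 (-2.49) and the teneurin Tenm4 (-2.41) completed the group. Of these 7, Pcdh19 was the most uneven within KPT, from -5.39 to -2.77. Trib3 (-0.62) and Chac1 (-1.1), both induced by ATF4, were the 2 of 27 stress genes that passed (7.41%, against 6.88% of all genes). Of 39 cell cycle genes Ccnd1 alone passed (1.01 ± 0.20), which was 2.56% of the list, against 6.88% of all genes. Trib3 no longer passed when any 1 of the 9 samples was left out, Ccnd1 when any 1 but KPT 1 was, and Chac1 when KPT 4, KPT 5 or any 1 K-LM sample was.

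The study proposed signatures for K-LM and KPT, which it chose on this series, so their counts here are not independent evidence of direction. They are lists of human genes, and those not matched to a mouse gene here were left out. Of the 14 K-LM genes used 4 were higher (Cfb, Krt19, Saa1 and Saa2) and none lower (28.6%, against 6.88% of all genes). The median was 1.06, and 12 were higher without KPT 1 and 2, and 2 without KPT 3 to 5. Of the 13 KPT genes used 1 passed, Arhgap33 (7.69%, against 6.88% of all genes). Arhgap33 was lower in K-LM (-1.51 ± 0.22, not passing when any 1 K-LM sample was left out), although the median of the KPT list was 0.68. Of these 13, 7 were higher and 1 lower without KPT 1 and 2 (median 1.53), and none higher and 2 lower without KPT 3 to 5 (median -0.58).

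The difference between KPT and K-LM was then set beside that of the passages before and after. The P5 cells descend from P4 cells of the same route, so the passages are not independent. At P4, with 3 samples a group, no probe of 21318 passed and 1884 had an unadjusted p under 0.05 (limma), and none passed for the P5 difference minus the P4 difference (1869 with an unadjusted p under 0.05). Of the 782 genes that passed at P5, 681 (87.1%) had the same sign at P4, against 66.5% of all genes. At P6, with 3 samples a group on the later slide, 6.13% of probes and 6.62% of genes passed, and 560 of the 782 genes (71.6%) had the same sign, against 54.3% of all genes. At P6 162 of them passed with the same sign and 9 with the opposite one. For the P6 difference minus the P5 difference 1070 of 21345 probes (5.01%) and 5.4% of genes passed.

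Of the 11 acute phase genes that passed at P5, 10 passed with the same sign at P6 (Cp, at an adjusted p of 0.0105, did not), against 1 of the 6 chemokines (Cxcl3) and 2 of the 4 complement genes (C3 and Cfb). For P6 minus P5, 1 acute phase gene passed (Serpina3n, larger at P6), 4 chemokines and 1 complement gene (C1s1, smaller at P6). For Saa1 the difference was 4.26 ± 0.72 (SE) at P4 (adjusted p = 0.0988), 5.45 at P5 and 4.17 ± 0.54 at P6 (adjusted p = 0.000289), and for Cfb it was 3.51 ± 0.91, 5.07 and 4.45 ± 0.60. The P6 difference minus the P5 difference was -1.27 for Saa1 (adjusted p = 0.222) and -0.62 for Cfb (adjusted p = 0.608). For Cxcl1 the difference was 0.47 ± 0.70 at P4, 5.98 at P5 and 0.61 ± 0.48 at P6, and P6 minus P5 was -5.37 ± 0.62 (adjusted p = 0.0004). Cxcl2 (-4.39), Cxcl5 (-3.90), Cxcl3 (-2.67), Csf2 (-2.62) and Tnf (-2.30) also passed for P6 minus P5. By level, Cxcl1 was at -0.17 ± 1.3 (SD, n = 3) in KPT P4, -5.07 ± 0.82 (n = 5) in KPT P5 and -1.99 ± 0.78 (n = 3) in KPT P6 on the later slide, but at 0.30 ± 1.3, 0.91 ± 0.45 and -1.38 ± 0.24 in K-LM P4, P5 and P6. Parental cells were at -1.31 ± 0.086 (n = 2). KPT P5 thus had the lowest mean of Cxcl1 of all KPT and K-LM passages. Lcn2, Cp, Orm1, Orm2 and Saa3 also had lower means in KPT P5 than in KPT P4 and P6, whereas Saa1, Serpina3f and Serpina3i did not. Lcn2 was at 2.09, -0.22 and 1 in KPT P4, P5 and P6, and Cp at 0.67, -0.72 and 0.86. The mean of Cp was also lower in K-LM P5 (0.74) than in parental cells (1.78). Changes between passages of a route were not tested.

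Of the 13 cholesterol genes that passed at P5, 12 had the same sign at P6, but 0 passed there. For P6 minus P5, 1 of them passed (Dhcr7, 1.17). Scd2, which is not of that list, and Fdps differed at P5 and passed at neither of its neighbours. Scd2 differed by 0.56 ± 0.40 at P4 and 0.16 ± 0.34 at P6, and P6 minus P5 was 2.99 ± 0.44 (adjusted p = 0.00143). Its mean was 1.30 ± 0.10 in K-LM P4 (n = 3), -0.73 ± 0.34 in K-LM P5 (n = 4) and 1.49 ± 0.46 in K-LM P6 (n = 3), and 0.74 ± 0.95, 2.11 ± 0.45 and 1.33 ± 0.57 in KPT P4, P5 and P6. Fdps differed by 0.09 ± 0.29 at P4 and -0.30 ± 0.26 at P6, and its P6 minus P5 of 1.35 ± 0.34 missed the threshold (adjusted p = 0.0173). Its mean was 1.43 ± 0.37, 0.68 ± 0.14 and 1.66 ± 0.42 in K-LM P4, P5 and P6 and 1.35 ± 0.49, 2.33 ± 0.40 and 1.96 ± 0.31 in KPT. The difference of Bmp7 was -2.53 ± 0.49 at P4, where it did not pass (adjusted p = 0.154), -3.59 at P5 and -3.36 ± 0.36 at P6 (adjusted p = 7.3e-05), and its mean was higher in each KPT passage from P4 (-4.81 ± 0.92) to P6 (-4.47 ± 0.10) than in parental cells (-7.70 ± 0.47). The largest positive values of P6 minus P5 were those of Serpina3m (6.64), Serpina3c (5.23) and the betaine transporter Slc6a12 (4.90), which stood at -8.43 ± 0.24, -8.18 ± 0.60 and -4.30 ± 0.34 in K-LM P5 and at -2.76 ± 0.52, -3.77 ± 0.47 and -0.99 ± 0.36 in K-LM P6. Both Serpina3 genes were below background in all 9 P5 samples and in every KPT P6 sample on the later slide. Their differences are measured values that rest on background signal, so their size and rank are uncertain.

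**Figure D5:**
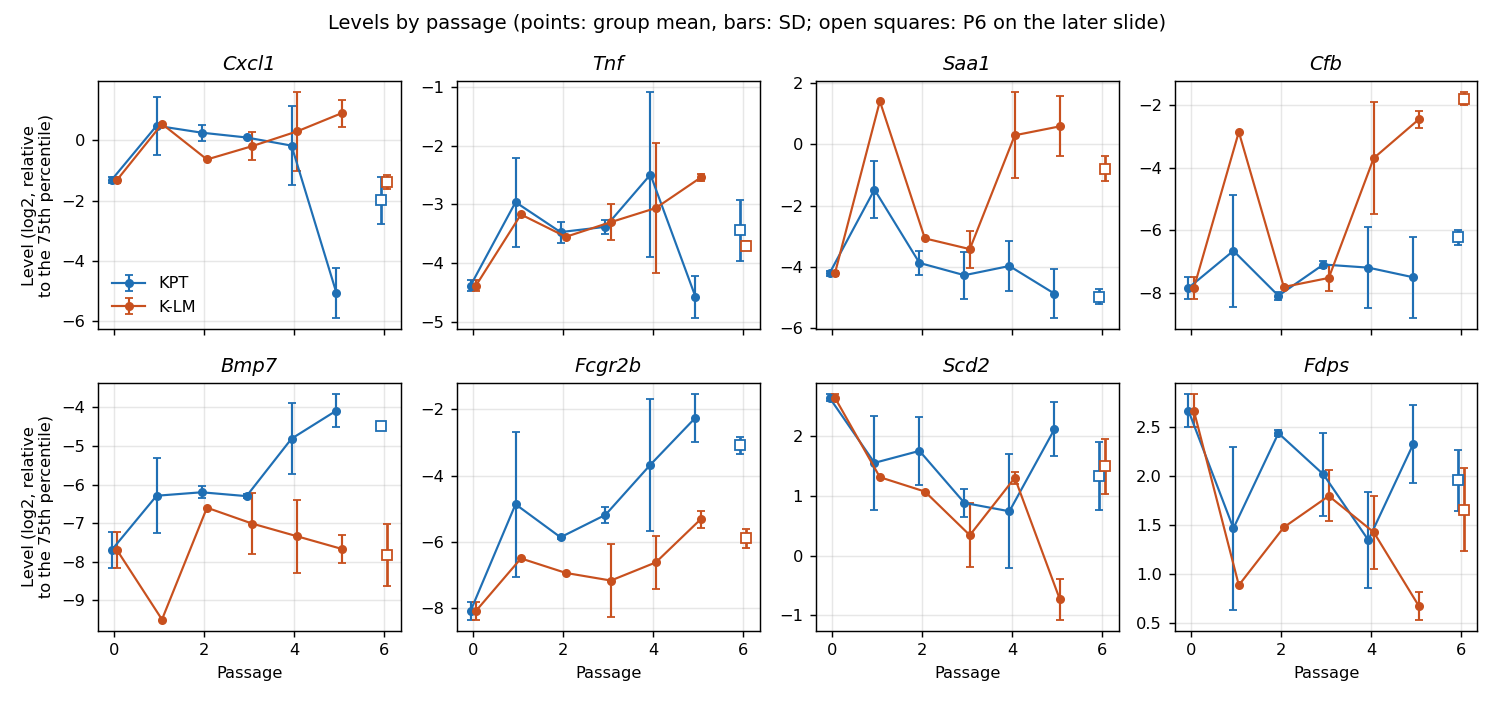
Mean levels of 8 genes in parental cells (P0) and in KPT and K-LM by passage, on the log2 scale relative to the 75th percentile, with the SD as bars (no bar for K-LM P1 and P2, which are 1 sample each). Open squares are P6 on the later slide and are not joined to the rest. Cxcl1 and Tnf dip in KPT P5, Saa1 and Cfb are high in K-LM at P1 and from P4 on and lower at P2 and P3, Bmp7 and Fcgr2b are higher in late KPT, and Scd2 and Fdps dip in K-LM P5.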

How the data were processed

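Total RNA of each cell line was labelled with Cy5 and hybridised to 1-colour Agilent mouse arrays. The deposited scanner files hold signal intensity per spot, and per the file headers the processed intensity used here was background-subtracted and detrended by the scanner software. The deposited series table holds the authors' log2 values, which matched the log2 of the raw median intensity after quantile normalization over arrays to within 0.1055. The scale, centring and direction of that table are thereby known, and it was used as an alternative.

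Control spots (3671 of 62976) and flagged spots were left out, and the spots of a probe were averaged into 55681 probes. Accessions were matched to symbols through a RefSeq table (GRCm38.p6): 28026 probes had a symbol and 27655 had none here. Levels are log2 processed intensity minus the 75th percentile of the 11289 probes well above background on all 70 arrays. Probes above background on at least 2 arrays of a fit were tested, and the brightest probe on average stood for a gene. A sample whose spots of a probe were all flagged is missing for that probe (77 tested probes lack a sample). Where all samples of a group were below background, a lower bound of the ratio is printed, against the lowest signal well above background on each array. An array has no read depth, so precision depends on how many samples there are.

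Groups follow the titles. KPT P5 and K-LM P5 were fitted with limma 3.58.1 (R 4.3.3, lmFit and eBayes, 2-sided), and called at an adjusted p (Benjamini-Hochberg) of at most 0.01, as in the study's methods. Every adjusted p given is limma's, over all probes of the fit. P6 was taken from the later slide, which also held 3 KPT P6 samples hybridised again. The P5 fit was run on simulated data with independent samples. It recovered 34.3%, 86.6% and 92.4% of changes of 1, 2 and 4 log2 units, with 2 false calls. The likeness of samples within a group was not simulated. Single values over samples were tested by exact permutation.

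The samples compared, gene lists and marker lists were chosen with earlier results of these data known. Named genes are the 12 largest differences in each direction among genes that passed, were above background in every sample of a group and did not overlap; from each list up to 4 that passed and 2 that did not; Saa1, Saa2 and Cfb; and the 3 largest differences between passages in each direction. Some genes that the rule takes are not reported here. The genes named beyond this rule, among them Nfkbia, Nos2, Zc3h12a, Lyz2, Crct1, Sprr1b, Il1f6, further members of the lists and both promoter motifs, were chosen after their values were seen. Normexp (offset 50) was run on the median signal, because the scanner files used here hold no mean signal. Other alternatives were the scaling, the filter, a floor on dim probes, samples left out, slide, array weights, replicate number and the index of long mRNAs.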

Additional observations from a re-analysis of the deposited data

Results flagged for a closer look

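A check for a sample far from the rest of its group, which flags about 1 in 20 groups by chance, was run on 178 sets of values and pointed to these. In KPT P5, Scd2 was low in KPT 2 (1.33, the others 2.18 to 2.46), Socs1 was high in KPT 1 (-5.35, the others -5.84 to -5.73), Pdgfrb was high in KPT 1 (-1.85, the others -3.63 to -3.38) and Trib3 was high in KPT 4 (3.87, the others 3.70 to 3.74). In K-LM P5, the index of long mRNAs was low in K-LM 3 (-8.71, the others -7.99 to -7.90). Serpina3m was highest in K-LM 3 (-8.07, the others -8.59 to -8.51) but below background in every P5 sample. Tnf was low in K-LM 5 (-2.62, the others -2.52 to -2.50) and Slc6a12 in K-LM 2 (-4.81, the others -4.18 to -4.05). In K-LM 6, Tfcp2l1 was high (-3.78, the others -4.25 to -4.18), Lcn2 was low (3.32, the others 3.52 to 3.55) and Lyz2 was high (-1.93, the others -3.53 to -3.35).

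The difference between K-LM and KPT at P6 was not that at P5 for these named genes (limma, adjusted p of 0.01 or less for P6 minus P5, all P6 samples on the later slide). It was smaller at P6 for Cxcl1 (-5.37), Cxcl2 (-4.39), Cxcl5 (-3.90), Cxcl3 (-2.67), Csf2 (-2.62), Tnf (-2.30), C1s1 (-1.45), Mmp10 (-1.41), Pdia3 (-1.16) and Plat (-1.08). It was larger, or less negative, for Serpina3m (6.64), Serpina3c (5.23), Slc6a12 (4.90), Serpina3n (4.82), Scd2 (2.99), Tfcp2l1 (1.69), Chac1 (1.52), Dhcr7 (1.17) and Pax8 (0.92).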

How the results depend on the processing

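Of 1149 probes that passed, the count was 904 to 1084 with the percentile over all probes, normexp, the authors' values, a filter on all arrays or a floor on dim probes, 847 with slide as a fixed term and 1473 with the tail-vein P5 samples in the fit. It was 686 without a filter, 1802 with slide as a random block (correlation 0.3), 3957 with array weights and 3709 at an adjusted p of 0.05 or less. It was 2 once the long mRNA index entered as a covariate and, of the fits chosen after seeing the data, 3232 without KPT replicates 1 and 2, 496 without KPT replicates 3, 4 and 5, and 0 with like samples averaged. Leaving out 1 sample at a time gave 356 to 1507, lowest without K-LM 6 and highest without KPT 2; without KPT 3, 4 and K-LM 2, 3 and 5 it was 423, 490, 376, 401 and 423, and without KPT 5 698. No gene of the 782 changed sign in any of these fits, which reuse the samples that the genes were chosen on. Which of these choices fits the data best was not tested.

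The replicate numbers 2, 3 and 5 occur in both groups, and the deviations of same-numbered samples correlated at 0.13, 0.22 and -0.24. These values had no reference to be judged by, so they cannot decide whether the numbers pair the samples. With the replicate number as a block, on 3 pairs, 0 probes passed and 3922 had an unadjusted p under 0.05.

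The separation of the groups without KPT 3, 4 and 5 was 60.5% (exact permutation p = 0.0667) and the difference of the index was -0.83 (exact permutation p = 0.0667), both at the smallest p that 2 against 4 samples allow. The separation lay between 23.7% and 69.3% and the index difference between -1.10 and -0.65 in all other settings, with the direction and side of the threshold of the values reported. For the P5 difference minus the P4 difference no probe passed under any alternative run. For the P6 difference minus the P5 difference 363 passed without a filter and 1797 with the earlier arrays of KPT P6, and leaving out 1 P5 sample at a time gave 618 (without K-LM 6) to 1696 (without KPT 2).

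Named genes with no call at P5 turned sign as follows, and the cause was not tested. Col1a1, -0.52 as reported, was 1.91 without KPT 1 and 2, 1.48 with array weights, 1.96 with slide fixed, 0.20 with the replicate block, 3.22 and 0.69 within the 2 slides, and -1.28 to 0.65 with 1 sample left out (above 0 without KPT 1, at 0.65, or KPT 2, at 0.13). Lyz2, -0.45 as reported, was 1.78 without KPT 1 and 2, 0.70 with array weights, 1.44 with slide fixed, 1.05 and 1.82 within the slides, and above 0 without KPT 1 (0.28) or KPT 2 (0.50). Slc6a12, with a difference near 0, was 0 with the percentile over all probes, 0.02 without KPT 3 to 5, 0.24 within the slide of KPT 5 and K-LM 3, and -0.22 to 0.07 with 1 sample left out (0.03 without KPT 4 and 0.07 without K-LM 2). Genes dim in 1 group have only a bound, so their order of size depends on the background signal.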
